A study of Homo sapiens with 11 samples.

Results

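The genes described here encode the structural proteins of the sarcomere other than the myosins and troponin I. They are 34 of the 36601 genes in the feature table, taken by symbol, and all 34 were found. Thin filament members numbered 14: the actins ACTC1 and ACTA1, troponin T genes TNNT1, TNNT2 and TNNT3, troponin C gene TNNC1, tropomyosins TPM1, TPM2 and TPM3, and LMOD2, LMOD3, NEB, NEBL and FHOD3. Titin, thick filament associated and M-band members numbered 6: TTN, MYBPC3, MYBPHL, MYOM1, MYOM2 and MYOM3. The other 14 act at the Z-disc, the intercalated disc or the intermediate filaments: ACTN2, LDB3, CSRP3, TCAP, MYOZ2, MYPN, PDLIM3, PDLIM5, SMPX, XIRP1, XIRP2, DES, SYNPO2L and CMYA5. All cells came from H9, a human embryonic stem cell line, and were taken for droplet single-cell RNA-seq on day 42.5. The groups were a 2D culture, stable chambered cardioids (hollow heart organoids) made with PD173074, and such cardioids made without PD173074. PD173074 is an inhibitor of fibroblast growth factor receptors; its dose and timing are not in the labels used here. The groups are called 2D, SCPD and SCWOPD as in the sample titles. Each group is 1 line, 1 day and, by its barcodes, 1 sample of cells.

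The sarcomere is the contractile unit of striated muscle. Thin filaments of actin, tropomyosin and troponin are anchored at the Z-disc by alpha-actinin and slide past thick filaments of myosin, which are crosslinked at the M-band by myomesins. Titin spans from Z-disc to M-band as a molecular spring. Several of these proteins come from gene families whose members are used at different stages or in different muscles: the heart uses mainly cardiac actin and cardiac troponin T, whereas skeletal actin and the skeletal troponin T genes are better known from skeletal muscle or from the immature heart.

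Among the 28 members with a RefSeq promoter entry (build GRCh38.p14, 250 bases before the start, 38 entries), those of 4 genes held a CArG box, the element bound by serum response factor, on either strand. That is 14.3% of the matched members, against 1.16% of the 35116 promoters in the table. A member counted when any of its entries held the element, whereas the table was counted per promoter. This favours the members, here and for the elements below. They are shown because they belong to both actin paralogues, of which ACTA1 differed between the samples and ACTC1 did not pass, and to LDB3, which was higher in SCPD than in both other samples, and MYOM1, which was higher in SCPD than in 2D. Capitals mark matches to the CArG box, the MCAT element CATTCC, the MEF2 site or TATAAA. The ACTC1 promoter is on chr15:34795550-34795799, minus strand, and that of ACTA1 on chr1:229434095-229434344, minus strand. MYOM1 lies on chr18:3219969-3220218, minus strand, and LDB3 on chr10:86668261-86668510, plus strand.
ACTC1 (entry 1 of 3): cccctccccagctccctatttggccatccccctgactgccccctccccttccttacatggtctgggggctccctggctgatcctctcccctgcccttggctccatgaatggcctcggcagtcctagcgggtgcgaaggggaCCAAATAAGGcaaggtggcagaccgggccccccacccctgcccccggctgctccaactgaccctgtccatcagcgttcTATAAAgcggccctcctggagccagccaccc
ACTA1: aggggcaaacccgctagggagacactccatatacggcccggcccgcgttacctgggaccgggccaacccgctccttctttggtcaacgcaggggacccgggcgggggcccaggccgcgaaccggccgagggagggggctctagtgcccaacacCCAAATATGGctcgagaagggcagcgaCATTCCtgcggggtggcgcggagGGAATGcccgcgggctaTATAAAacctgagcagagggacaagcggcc
MYOM1: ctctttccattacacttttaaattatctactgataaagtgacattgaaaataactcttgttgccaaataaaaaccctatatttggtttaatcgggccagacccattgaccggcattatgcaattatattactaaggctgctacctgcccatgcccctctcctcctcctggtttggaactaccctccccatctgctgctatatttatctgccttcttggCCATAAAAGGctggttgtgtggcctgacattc
LDB3 (entry 1 of 2): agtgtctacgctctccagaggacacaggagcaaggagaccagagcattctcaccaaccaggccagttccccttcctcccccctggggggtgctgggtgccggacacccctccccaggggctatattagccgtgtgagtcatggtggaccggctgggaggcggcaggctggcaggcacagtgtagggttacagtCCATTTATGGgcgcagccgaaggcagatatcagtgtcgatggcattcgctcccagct
Both actin promoters carried the CArG box and TATAAA at nearly the same places: the box began 109 bases before the ACTC1 start and 97 before the ACTA1 start, and TATAAA 31 and 30 bases before. ACTA1 also carried 2 CATTCC elements, at 70 and 47 bases before the start. The MYOM1 box began 32 bases and the LDB3 box 57 bases before the start. MEF2 sites were found for TTN, MYBPC3, MYOM3, MYOZ2, SMPX, XIRP1, XIRP2 and SYNPO2L, 28.6% of the matched members against 1.75% of all promoters. CATTCC was in 17.9% of members against 11.9% of all, TATAAA in 17.9% against 10.7%, and the E-box CANNTG in 85.7% against 61.8%. Each was searched on both strands. Members with several entries had more chances to hold an element than a single promoter, so these shares are not like for like. These matches are letters in a window and say nothing of binding in these cells.

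There were 11 libraries: 3 of 2D, 3 of SCPD and 5 of SCWOPD. Within a group they shared 99.3 to 99.9% of their cell barcodes, so they are repeat runs of the same droplets, and each group is 1 sample. Between groups the shared barcodes were 0.195 to 0.737%. There is therefore no test of one group against another. Runs were averaged, and intervals are exact 95% intervals for counting error only. They hold no variation between cultures or between runs. In SCWOPD, TNNC1 had an interval of 680 to 706 CPM, whereas its runs measured 639 to 866. Total counts of unique molecular identifiers (UMIs) per run were 12266166 to 46304366. Run 3 of SCWOPD, at 12266166, was the shallowest, and it stands apart from the other 4 runs of its sample for 12 of the members. After filtering, 8183 cells of 2D, 4597 of SCPD and 3534 of SCWOPD remained, with median UMIs per cell and run of 4313, 6648 and 5060. Clusters were made without the 34 genes. Cardiomyocyte-like cells were those of 9 clusters with high levels of 12 other cardiomyocyte genes: 4973, 2888 and 2771 cells. A further 2263, 509 and 375 cells with such levels were set aside: among the 10 leading genes of their 3 clusters, 1 was a marker of another class (KDR, ALDH1A2 or MYH11) and 0 were cardiomyocyte markers. Their cardiomyocyte marker levels, a mean log2(CPM + 1) of 8.84, 8.47 and 8.36, were close to those of clusters that were kept. SCWOPD also held 826 cells in 6 clusters that were mostly of 2D, 9.33 to 14.2 for each 100 of the 2D cells there. Another 516 lay in 4 clusters mostly of SCPD, 16.3 to 16.9 per 100. The barcodes that SCPD and SCWOPD runs shared were 7 to 28, with log10 UMIs that correlated at 0.299 to 0.725, against 8 to 11 barcodes and at most 0.181 between 2D and the cardioid runs. Whether cells or indices were mixed between samples was not tested. Of the cardiomyocyte-like cells of SCWOPD, 29.4% were in such clusters (2D 1.67%, SCPD 2.29%), so each comparison is also given without them. If those cells belong to SCWOPD, leaving them out can by itself widen its differences from the other samples. Of the 1957 SCWOPD cardiomyocyte-like cells then left, 1367 were in 1 cluster, number 3. Levels are CPM, a gene's UMIs scaled to all UMIs of the cells summed. A gene is said to pass when it reached 10 CPM in the higher group and the whole interval of the ratio lay beyond 1.5-fold.

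In cardiomyocyte-like cells the 34 genes together made up 1.90% of the UMIs in 2D, 2.25% in SCPD and 2.04% in SCWOPD. TPM1, TTN, ACTC1 and TNNT2 gave 62.1%, 67.0% and 67.4% of those UMIs. The count is of 3′ ends and is not scaled by gene length. Of the 34, 5 reached 1000 CPM in some group, 14 lay between 100 and 1000, 7 between 10 and 100, and 8 stayed under 10 everywhere. These 8 were NEB (nebulin, a ruler of skeletal thin filaments), TNNT1, TNNT3, MYBPHL, MYOM3, XIRP2, LMOD2 and LMOD3. They enter no count of passing genes in all cardiomyocyte-like cells, because of the floor of 10 CPM. The intervals of some lay wholly beyond 1.5-fold. In SCPD against 2D, NEB was 1.98 [1.35, 2.64], TNNT1 -3.35 [-4.23, -2.57] and MYBPHL 4.01 [2.63, 5.84].

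**Figure D1:**
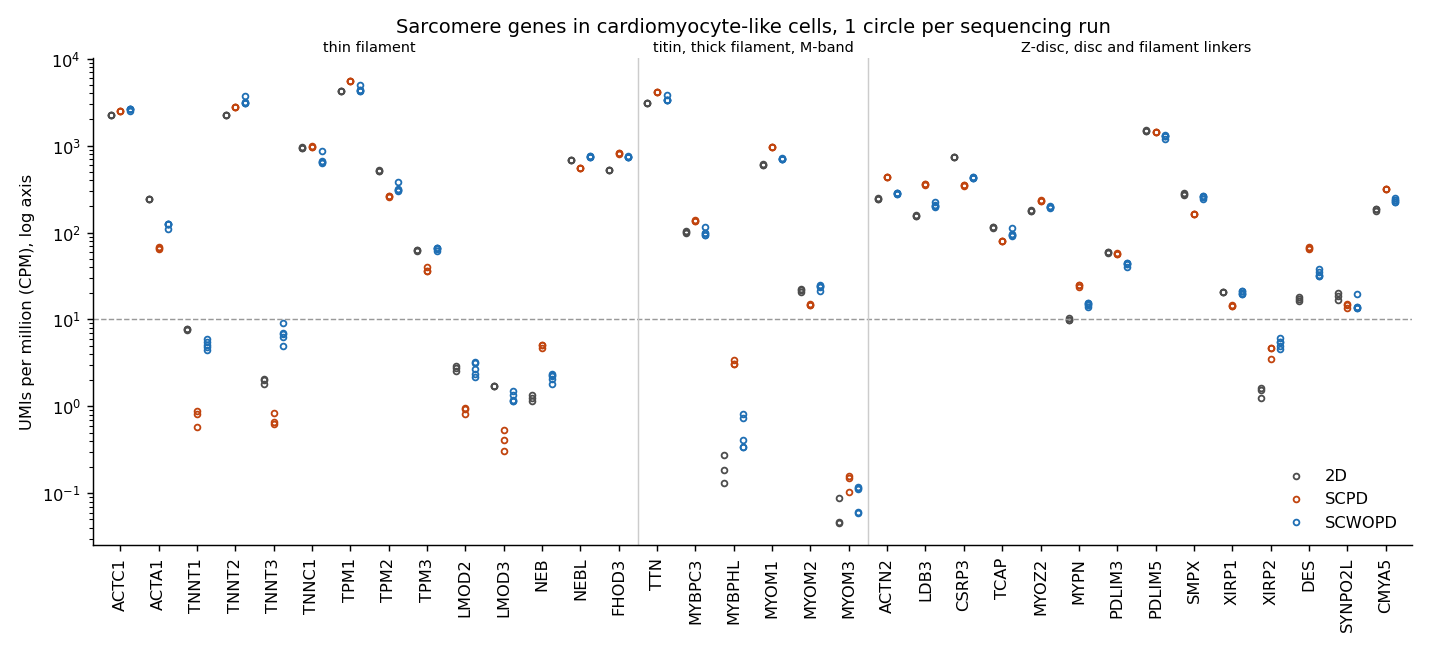
Level of each of the 34 genes in cardiomyocyte-like cells, in CPM on a log axis, with 1 circle per sequencing run and a dashed line at 10 CPM. The runs of a sample lie close together, apart from run 3 of SCWOPD for genes such as TNNT2 (3753 CPM against 3078 to 3140 in the other runs), and ACTA1, DES and LDB3 separate the 3 samples.

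Treated against untreated cardioids, 2 members were higher and 2 lower with PD173074: DES and LDB3 against ACTA1 and TPM3. Of all 10573 genes tested, 5.07% passed as higher and 4.66% as lower. The median log2 ratio was 0.04 over the 34 members and 0.15 over the 26 at 10 CPM, beside -0.07 over all genes. Untreated cardioids against 2D, DES was higher and ACTA1, TPM2 and CSRP3 were lower, with 3.47% and 1.29% of all 10425 genes passing in those directions. The medians there were 0.13 over the 34 members, 0.10 over the 26 at 10 CPM and 0.09 over all genes. Treated cardioids against 2D, 7 members were higher (ACTN2, MYOM1, LDB3, MYPN, FHOD3, DES and CMYA5) and 5 lower (ACTA1, TPM2, TPM3, CSRP3 and SMPX), with 9.2% and 6.99% of 10626 genes passing. Here the median was 0.10 both over the 34 members and over the 26 at 10 CPM, and 0.02 over all genes. The last 2 comparisons share the 2D sample. Without cells in clusters mostly of another sample, 5 members were higher and 2 lower in SCPD against SCWOPD (5.61% and 5.57% of all genes), with ACTN2, TNNC1, MYPN and SMPX joining DES, LDB3 and TPM3, and ACTA1 dropping out. In SCWOPD against 2D 1 was then higher, FHOD3, and 5 lower (5.14% and 2.35% of all genes), with TNNC1 and PDLIM3 joining the 3 above. In SCPD against 2D the same 7 and 5 passed (9.36% and 7.07% of all genes). Removing cells for their likeness to another sample can itself raise such counts.

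**Figure D2:**
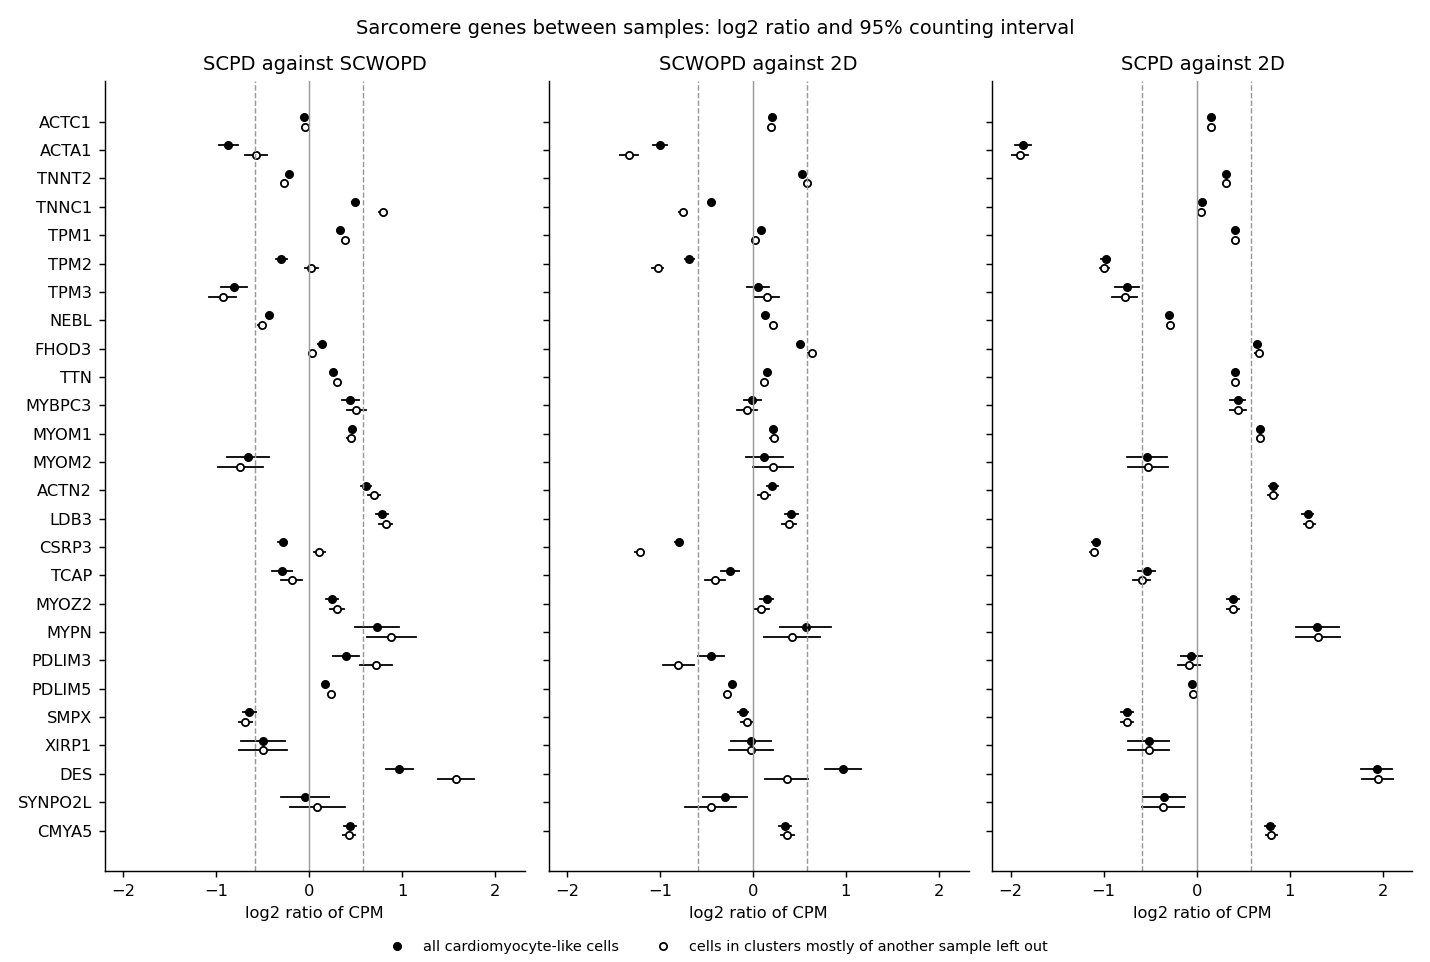
Log2 ratio of CPM with its 95% counting interval for the 26 members that reached 10 CPM, in the 3 comparisons; filled circles, all cardiomyocyte-like cells; open circles, without cells in clusters mostly of another sample; dashed lines, 1.5-fold. DES lies at 1.94 and ACTA1 at -1.87 in SCPD against 2D, and the open circle of DES in SCWOPD against 2D sits at 0.36.

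Actin is the core of the thin filament. ACTC1 encodes the cardiac isoform and lies on chr15:34788095-34795726 of GRCh38 (minus strand; gene bounds here and below from GENCODE 29). It measured 2260.4, 2257 and 2269.6 CPM in the 2D runs, 2508, 2511 and 2522 in SCPD, and 2632, 2641, 2529, 2636 and 2638 in SCWOPD. Its log2 ratios stayed between -0.06 and 0.21 and none passed. ACTA1, the skeletal isoform (chr1:229431245-229434098, minus strand), measured 241, 244 and 246 CPM in 2D, 66.8, 65.2 and 68.3 in SCPD, and 124, 125, 110.1, 125 and 125 in SCWOPD. No run of one sample overlapped those of another, 2D being highest and SCPD lowest. The log2 ratio was -1.87 [-1.96, -1.78] for SCPD against 2D, -1.0 [-1.08, -0.92] for SCWOPD against 2D and -0.87 [-0.97, -0.76] for SCPD against SCWOPD. As a share of the UMIs of both actins, ACTA1 was 9.73% (95% binomial interval 9.48 to 9.98) in 2D, 2.59% (2.45 to 2.73) in SCPD and 4.45% (4.26 to 4.65) in SCWOPD. The mean of the share per cell was lower, 5.45%, 2.38% and 3.28%, in the same order of samples.

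Much of the ACTA1 of the 2D culture came from 1 cluster, number 13, led by MYL2, MYH7, NPPB and ANKRD1, genes known for ventricular or stretched myocardium. It held 450 cells of 2D, 8 of SCPD and 42 of SCWOPD. In 2D those cells carried 9.91% of the cardiomyocyte-like UMIs but 51.9% of the ACTA1 UMIs. Their ACTA1 level was 1278 CPM; the next highest cluster, of dividing cells, had 319. Without cluster 13 the ACTA1 levels were 130, 66.1 and 100.005 CPM in 2D, SCPD and SCWOPD. SCPD against 2D then still passed at -0.98, whereas SCWOPD against 2D (-0.38) and SCPD against SCWOPD (-0.60) did not. The latter also did not pass without cells in clusters mostly of another sample (-0.57 [-0.69, -0.45]). SCWOPD against 2D was -0.66 and did not pass once the set-aside clusters were counted as cardiomyocyte-like.

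Troponin T holds the troponin complex to tropomyosin. The cardiac gene TNNT2 (chr1:201359008-201377762, minus strand) measured 2248, 2238 and 2233 CPM in 2D, 2803, 2778 and 2790.3 in SCPD, and 3140.1, 3084, 3753, 3089 and 3078 in SCWOPD. Every SCWOPD run was above every other run, and the log2 ratio against 2D was 0.53 [0.51, 0.55], short of the rule. The slow skeletal gene TNNT1 (chr19:55132794-55149354, minus strand) was at 7.76, 7.72 and 7.62 CPM in 2D, 0.81, 0.88 and 0.58 in SCPD, and 5.53, 4.42, 6.01, 4.81 and 5.14 in SCWOPD. It was lowest in SCPD in every run. The fast skeletal gene TNNT3 (chr11:1919562-1938706, plus strand) was at 2.07, 1.82 and 2.00 CPM in 2D, 0.66, 0.83 and 0.63 in SCPD, and 6.92, 4.89, 9.19, 6.76 and 6.36 in SCWOPD. Here SCWOPD was highest, and its runs spread from 4.89 to 9.19. TNNT2 thus gave 99.6%, 99.9% and 99.6% of the troponin T UMIs in 2D, SCPD and SCWOPD. TNNT1 gave 0.342%, 0.027% and 0.160%, and TNNT3 0.087%, 0.025% and 0.211%. TNNC1, the calcium sensor of cardiac and slow muscle, averaged 944, 978 and 693 CPM. None of its ratios passed in all cardiomyocyte-like cells; without cells in clusters mostly of another sample SCWOPD fell to 563 CPM, and SCPD against SCWOPD passed as higher (0.80) and SCWOPD against 2D as lower (-0.75).

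**Figure D3:**
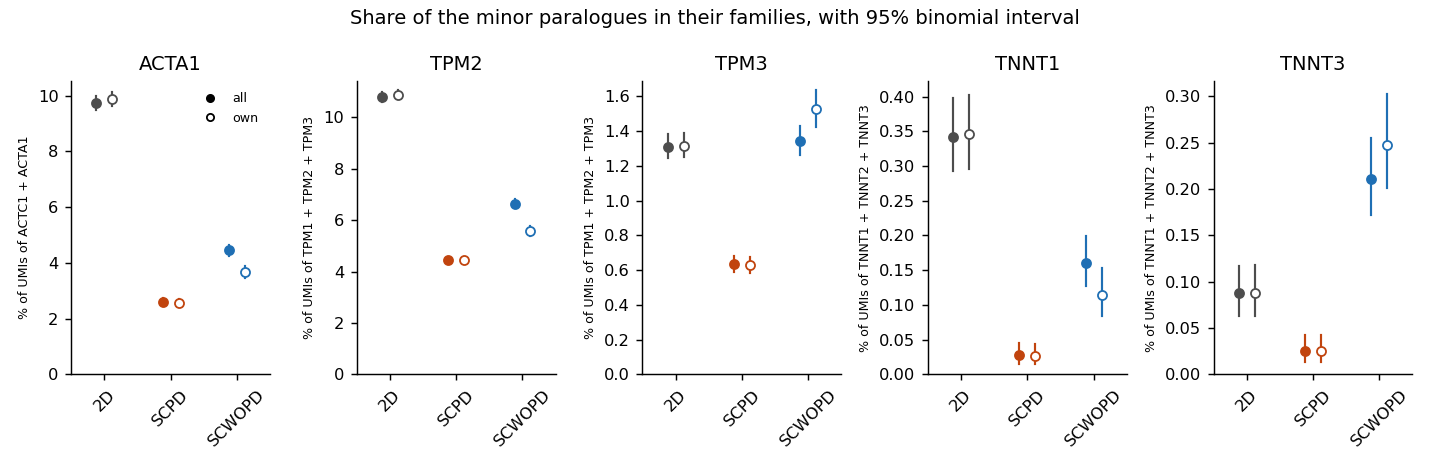
Share of each minor paralogue in the UMIs of its family, in percent, with its 95% binomial interval (counting error only), by sample; filled circles, all cardiomyocyte-like cells; open circles, without cells in clusters mostly of another sample. ACTA1 and TPM2 take their highest shares in 2D (9.73% and 10.8%), TNNT3 in SCWOPD (0.211%), and each is lowest in SCPD.

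Tropomyosin lies along actin and gates its contact with myosin. TPM1, the main cardiac form (chr15:63042632-63071915, plus strand), had the highest level of all members: 4197, 4204 and 4214 CPM in 2D, 5605, 5600.4 and 5584 in SCPD, and 4356, 4319.6, 5019.9, 4289 and 4296 in SCWOPD. TPM1 ratios did not pass (SCPD against 2D 0.41, SCPD against SCWOPD 0.33). TPM2, beta-tropomyosin (chr9:35681992-35690121, minus strand), measured 515, 518 and 516 CPM in 2D, 259, 262 and 264 in SCPD, and 314, 304, 377, 306 and 308 in SCWOPD. The 2D runs were above all cardioid runs. Against 2D the log2 ratio was -0.98 [-1.03, -0.93] in SCPD and -0.68 [-0.73, -0.63] in SCWOPD. SCPD against SCWOPD was -0.30, and 0.03 [-0.04, 0.09] without cells in clusters mostly of another sample. Its share of the tropomyosin UMIs was 10.8% (10.6 to 11) in 2D, 4.44% (4.33 to 4.57) in SCPD and 6.65% (6.47 to 6.83) in SCWOPD. TPM3, a slow muscle and widely expressed form (chr1:154155304-154194648, minus strand), was at 63.6, 63.4 and 61.1 CPM in 2D, 36.4, 39.7 and 36.0 in SCPD, and 64.8, 61.8, 66.4, 66.1 and 66.7 in SCWOPD. SCPD alone was low: -0.80 [-0.94, -0.66] against SCWOPD and -0.75 [-0.88, -0.62] against 2D. The runs of SCWOPD and 2D overlapped. Stromal-like cells, which carried 1114 (2D) and 1243 (SCWOPD) CPM of TPM2, were 8.60% of the cells of 2D, 0.022% of SCPD and 1.87% of SCWOPD. The summed level of stromal marker genes in the cardiomyocyte-like cells was 289, 515 and 224 CPM. What RNA of those cells adds to the TPM2 and TPM3 ratios was not tested.

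FHOD3, a formin that builds cardiac thin filaments (chr18:36297714-36780055, plus strand), measured 521, 522 and 522 CPM in 2D, 817, 810.3 and 822 in SCPD, and 732, 745, 754, 738 and 745 in SCWOPD. All cardioid runs were above all 2D runs, and SCPD against 2D passed at 0.65 [0.61, 0.68]; with median-of-ratios scaling it was 0.61 and did not. NEBL, a nebulin-like protein of the cardiac Z-disc and thin filament, averaged 683, 556 and 749 CPM in 2D, SCPD and SCWOPD, with no ratio passing. LMOD2 and LMOD3, which act at the pointed end of the thin filament, averaged 2.76, 0.90 and 2.72 CPM and 1.72, 0.42 and 1.27 CPM. Both were lowest in SCPD, at -1.62 and -2.05 against 2D. NEB averaged 1.25, 4.94 and 2.16 CPM and was highest in SCPD. In all, of the 9 thin filament members at 10 CPM, 0 were higher and 2 lower in SCPD against SCWOPD, 0 and 2 in SCWOPD against 2D, and 1 and 3 in SCPD against 2D. Of all genes, 5.07% and 4.66%, 3.47% and 1.29%, and 9.2% and 6.99% passed in those directions.

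Of the 4 titin, thick filament and M-band members at 10 CPM, 1 passed, MYOM1 in SCPD against 2D, where 9.2% of all genes passed as higher. TTN (chr2:178525989-178830802, minus strand) averaged 3112, 4150.2 and 3467 CPM in 2D, SCPD and SCWOPD, with log2 ratios of 0.41 for SCPD against 2D and 0.26 for SCPD against SCWOPD that did not pass. MYOM1, the myomesin that crosslinks thick filaments at the M-band (chr18:3066807-3220108, minus strand), measured 606, 599 and 612 CPM in 2D, 965, 968 and 969 in SCPD, and 702, 693, 726, 699.7 and 697 in SCWOPD. The runs of the 3 samples did not overlap. SCPD against 2D passed at 0.68 [0.64, 0.71]. MYOM2, its adult-heart and fast-muscle paralogue, averaged 21.5, 14.9 and 23.5 CPM, so MYOM1 gave 96.6%, 98.5% and 96.8% of the myomesin UMIs. MYOM3 averaged 0.06 to 0.14 CPM. MYBPC3, cardiac myosin-binding protein C, averaged 101, 137 and 101 CPM. MYBPHL, a relative known from atria and the conduction system, averaged 0.20, 3.18 and 0.53 CPM.

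At the Z-disc, ACTN2, the alpha-actinin that crosslinks actin there (chr1:236686454-236764631, plus strand), measured 243, 243 and 247 CPM in 2D, 433, 434 and 431 in SCPD, and 278, 285, 277, 286 and 286 in SCWOPD. SCPD stood above both others in every run. SCPD against 2D passed at 0.82 [0.77, 0.87]. SCPD against SCWOPD was 0.61 and did not pass. It passed without cells in clusters mostly of another sample (0.70) and without cluster 13 (0.65). LDB3, also called ZASP or cypher, a PDZ and LIM protein bound to alpha-actinin (chr10:86668449-86736068, plus strand), followed the same order: 153, 153 and 161 CPM in 2D, 351, 358 and 362 in SCPD, and 207, 202, 223, 199 and 204 in SCWOPD. No runs of different samples overlapped. SCPD was higher by 0.78 [0.72, 0.85] than SCWOPD and by 1.2 [1.14, 1.26] than 2D, and SCWOPD against 2D, at 0.41, did not pass. MYPN, myopalladin, which ties nebulin-like proteins to alpha-actinin (chr10:68106117-68212017, plus strand), was at 9.92, 10.4 and 9.81 CPM in 2D, 25.2, 23.9 and 25 in SCPD, and 13.9, 14.6, 15.3, 15.2 and 15.5 in SCWOPD. It passed in SCPD against 2D at 1.30 [1.06, 1.53].

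CSRP3, the muscle LIM protein (chr11:19182037-19210571, minus strand), was highest in 2D. It measured 743, 748 and 740.0 CPM in 2D, 355, 353 and 347 in SCPD, and 423, 427, 439, 430.0 and 419 in SCWOPD. The 2D runs were far above the cardioid runs. Against 2D the log2 ratio was -1.08 [-1.12, -1.04] in SCPD and -0.80 [-0.84, -0.76] in SCWOPD. Between the cardioids the direction turned with the cells counted: SCPD against SCWOPD was -0.28 in all cardiomyocyte-like cells and 0.11 [0.05, 0.17] without cells in clusters mostly of another sample (347 and 322 CPM), neither of which passed. SMPX, a small muscle protein of the costamere (chrX:21705972-21758163, minus strand), was at 282, 276 and 273 CPM in 2D, 165, 165 and 164 in SCPD, and 263, 257, 244, 259 and 263 in SCWOPD. SCPD was low and passed against 2D at -0.75 [-0.81, -0.69]. Against SCWOPD the value was -0.64, which passed (-0.66) when run 3 of SCWOPD was left out. CMYA5, myospryn, a large anchor protein near the Z-disc (chr5:79689877-79800240, plus strand), measured 186, 185 and 179 CPM in 2D, 316, 319.7 and 316 in SCPD, and 235, 236, 248, 225 and 224 in SCWOPD. It was highest in SCPD and passed against 2D at 0.79 [0.73, 0.85].

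Several of these calls rest on which clusters count as cardiomyocyte-like. Counting also the set-aside clusters, 3 members were higher and 2 lower in SCPD against SCWOPD (5.37% and 4.56% of all genes), 1 and 0 in SCWOPD against 2D (2.54% and 0.71%), and 6 and 3 in SCPD against 2D (8.64% and 6.42%). Over all cells of every class, 2 were higher and 6 lower in SCPD against SCWOPD (6.29% and 4.62% of all genes), 2 and 1 in SCWOPD against 2D (3.38% and 1.28%), and 2 and 7 in SCPD against 2D (9.7% and 6.29%). With the set-aside clusters counted, TPM2 (-0.50) and CSRP3 (-0.58) no longer passed in SCWOPD against 2D, and MYOM1 (0.55), FHOD3 (0.41), SMPX (-0.44) and TPM3 (-0.70) no longer passed in SCPD against 2D. At a limit of 15% mitochondrial UMIs CMYA5 in SCPD against 2D was 0.54 and did not pass either. ACTN2, LDB3, MYPN, DES, ACTA1, TPM2 and CSRP3 passed in SCPD against 2D under both settings. PDLIM3 was gained with the set-aside clusters counted. It was then at 93.7 CPM in SCPD, 45.5 in SCWOPD and 46.7 in 2D, and passed as higher in SCPD against both. Over all cells PDLIM3 passed as higher in SCPD against SCWOPD (0.68) but not against 2D (0.03).

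DES encodes desmin, the muscle intermediate filament that links Z-discs to each other and to the cell membrane (chr2:219418377-219426739, plus strand). It measured 17.2, 16.5 and 18.3 CPM in 2D, 65.1, 65.6 and 68.0 in SCPD, and 32.7, 34.8, 37.9, 31.8 and 31.5 in SCWOPD. The runs of the 3 samples did not overlap, with SCPD highest, but the runs of a sample repeat the same cells. SCPD was higher than 2D by 1.94 [1.77, 2.11], a fold of 3.83, and than SCWOPD by 0.97 [0.82, 1.12]. SCWOPD was higher than 2D by 0.96 [0.77, 1.16]. Without cells in clusters mostly of another sample, DES in SCWOPD was 22.2 CPM; the ratio of SCPD to SCWOPD then rose to 1.58 [1.39, 1.78] and that of SCWOPD to 2D dropped to 0.36 and did not pass. Smooth muscle also makes desmin. The 7 smooth muscle markers summed to 1760.5, 2623 and 1367 CPM in the cardiomyocyte-like cells of 2D, SCPD and SCWOPD, all 7 were at or above 1 CPM, and ACTA2 gave 978, 2111 and 934 of that. Their part in the DES ratios was not tested.

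The other Z-disc members passed in no comparison of all cardiomyocyte-like cells. PDLIM5, a PDZ and LIM protein also made outside muscle, averaged 1488, 1437 and 1277 CPM in 2D, SCPD and SCWOPD. MYOZ2, calsarcin-1, averaged 178, 234 and 198 CPM, TCAP, telethonin, 115, 79.6 and 97.4, and PDLIM3, actinin-associated LIM protein, 59.3, 57.0 and 43.4. XIRP1, a protein of the intercalated disc, averaged 20.6, 14.4 and 20.3 CPM, SYNPO2L 18.4, 14.5 and 15, and XIRP2 1.47, 4.31 and 5.33. In all, of the 13 Z-disc members at 10 CPM, 2 were higher and 0 lower in SCPD against SCWOPD, 1 and 1 in SCWOPD against 2D, and 5 and 2 in SCPD against 2D. Of all genes, 5.07% and 4.66%, 3.47% and 1.29%, and 9.2% and 6.99% passed in those directions.

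Across the 12 clusters with cardiomyocyte marker levels, 3 of them set aside, the members varied to different degrees. Each cluster was read in the sample with most of its cells. The highest cluster exceeded the lowest 26.5-fold for ACTA1, 21.6-fold for DES, 16.5-fold for TCAP, 16-fold for PDLIM3 and 11.7-fold for SYNPO2L. For PDLIM5 the same fold was 2.24, for NEBL 2.34, for TTN 2.59 and for TNNT2 2.70. Cluster 13 had high levels of many members: ACTC1 at 6102 CPM, TPM1 at 8624, TTN at 5945, TNNC1 at 2566, CSRP3 at 1582, TCAP at 382, PDLIM3 at 323 and SYNPO2L at 98.6. It held 54.1% of the PDLIM3 UMIs of the 2D cardiomyocyte-like cells, 53.0% of SYNPO2L, 84.2% of LMOD2, 32.8% of TCAP, 26.7% of ACTC1 and 18.9% of TTN. Without it PDLIM3 in 2D was 30.2 CPM, and SCPD against 2D passed as higher at 0.90. MYBPC3 was then 136 CPM in SCPD and 79.1 in 2D, MYOZ2 234 and 141, and SMPX 164 and 247.

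Among clusters mostly of SCPD, cluster 2, led by NPPA and NR2F1, genes known from atrial cells, had LDB3 at 426 CPM, ACTN2 at 488 and MYPN at 32.8; the 2D cells of cluster 13 had 399, 694 and 14.9. Cluster 12 had DES at 225 CPM, CMYA5 at 562 and PDLIM3 at 287. It was led by SHOX2, a sinus node gene, with MYH11, a smooth muscle gene, and was set aside. Cluster 8 had FHOD3 at 1150.2 CPM, above the 1005 of cluster 13. In cluster 3, almost all of SCWOPD and led by PTGER3 with TBX3, TNNT2 was 3699 CPM, TNNT3 9.53 and XIRP2 7.09. Cluster 1, of 2D cells with CKM, ENO3 and MB, had CSRP3 at 948 CPM and TPM2 at 674.

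**Figure D4:**
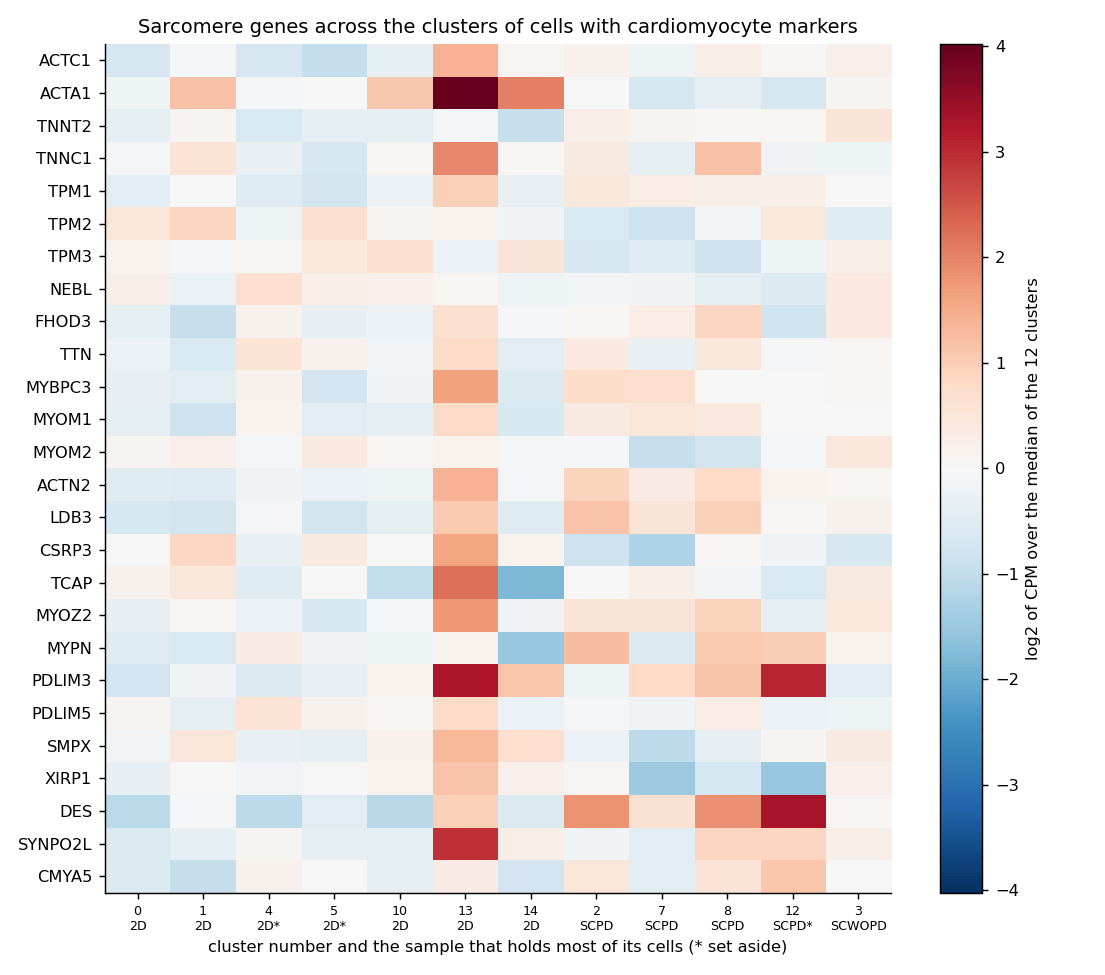
Log2 of each member's CPM in a cluster over the median of the 12 clusters, for the 26 members at 10 CPM; columns are clusters, with the sample that holds most of their cells (in cluster 14, 2D and SCPD hold equally many), and * marks those set aside. ACTA1, TCAP, PDLIM3 and SYNPO2L stand out in cluster 13, and DES and PDLIM3 in cluster 12.

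In the clusters that 2 or 3 samples shared, the members were read per sample. The SCWOPD cells of clusters 0, 1, 2, 4, 5 and 8 are among those that lie in clusters mostly of another sample; cells mixed in from that sample would match it, so values there describe the cells and are no comparison of the samples. In clusters 0, 1, 4 and 5 (SCWOPD against 2D) and 2 (SCPD against SCWOPD) no member passed, and at most 0.203% of all genes did. No member passed in cluster 7 or 10 either, where 1.92% and 0.495% of all genes did. In cluster 8, DES was 80.7 CPM in SCPD and 258 in SCWOPD, a log2 ratio of -1.68, opposite in sign to the ratio over all cardiomyocyte-like cells; 0.0681% of all genes passed there. Cluster 14, of dividing cells led by TOP2A and CENPF, held 156 cells of 2D, 156 of SCPD and 123 of SCWOPD. There ACTA1 was 319, 77.2 and 209 CPM, passing as lower in SCPD against 2D (-2.04) and against SCWOPD (-1.43). CSRP3 was 591, 186 and 301 CPM, passing as lower against 2D in SCPD (-1.67) and SCWOPD (-0.98). DES, at 15.1, 43.1 and 26.0 CPM, passed as higher in SCPD against 2D (1.51), and TNNT1, at 14.8 and 2.42 CPM, as lower (-2.61). Of all genes there, 6.62% passed in SCPD against 2D, 1.88% in SCWOPD against 2D and 3.06% in SCPD against SCWOPD. TCAP in these dividing cells was 23.2, 14.8 and 19.7 CPM.

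Per cell, each cell of run 1 was thinned to 2000 UMIs, which left 4609, 2641 and 2644 cells (364, 247 and 127 shallower cells left out). Each sample had a median of 11 members with a UMI; unthinned, the medians were 14, 15 and 15. ACTA1 was seen in 16.3% of the cells in 2D, 8.0% in SCPD and 12.4% in SCWOPD, against 5.9%, 0.5% and 2.4% of the cells of other classes thinned alike. LDB3 was seen in 23.5%, 49.3% and 34.8% (other classes 3.9%, 4.6% and 3.7%), and CSRP3 in 63.4%, 37.6% and 43.5% (other classes 15.2%, 4.5% and 6.4%). These shares keep the order of the CPM levels. DES was seen in 3.1%, 9.4% and 5.4%, close to the 2.7%, 6.9% and 5.1% in other classes, so the share alone does not set cardiomyocyte-like cells apart for DES. TTN was seen in 97.4%, 95.9% and 97.0%, against 31.6%, 17.6% and 15.2% elsewhere. Unthinned, the shares for ACTA1 were 23.7%, 16% and 22.3%, for LDB3 40.9%, 77.5% and 61.2% and for DES 6.3%, 21.5% and 11.3%; the median UMIs were 3955, 5903 and 5247.

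Cells of other classes showed the members at a low level, close to that of cardiomyocyte markers that are no members. The median member was at 17.3% of its cardiomyocyte-like level in the cartilage-like cells of 2D, 13.0% in those of SCPD and 9.10% in those of SCWOPD, beside 15.5%, 13.7% and 10.7% for the marker genes (11, 8 and 9 of the 12 were used). In stromal-like cells the members' median was 22.3% (2D) and 19.1% (SCWOPD) beside 19.3% and 16.1%. In epithelial-like cells it was 10.4% (SCPD) and 8.03% (SCWOPD) beside 9.22% and 6.61%. In endoderm-like cells it was 5.41% and 4.09% beside 4.12% and 3.27%. What free RNA adds to these levels was not tested.

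A few members stood above their cardiomyocyte-like level in other classes. PDLIM3 reached 394%, 651% and 775% of it in the cartilage-like cells of 2D, SCPD and SCWOPD, and 700.4% and 976% in the stromal-like cells of 2D and SCWOPD. TPM2 reached 216% and 386% in those stromal-like cells, and TPM3 lay at 177 to 320% in every class. TNNT1 was 27.3, 15.6 and 20.6 CPM in the cartilage-like cells of 2D, SCPD and SCWOPD. It was 30.5 and 21.0 in the epithelial-like cells of SCPD and SCWOPD and 12.4 and 43.4 in their endoderm-like cells, all above its level in cardiomyocyte-like cells. DES in cartilage-like cells was 8.13 CPM in 2D, 72.7 in SCPD and 67.8 in SCWOPD. Against 2D it passed there as higher at 3.16 and 3.06, with 7.88% and 3.24% of all genes passing.

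**Figure D5:**
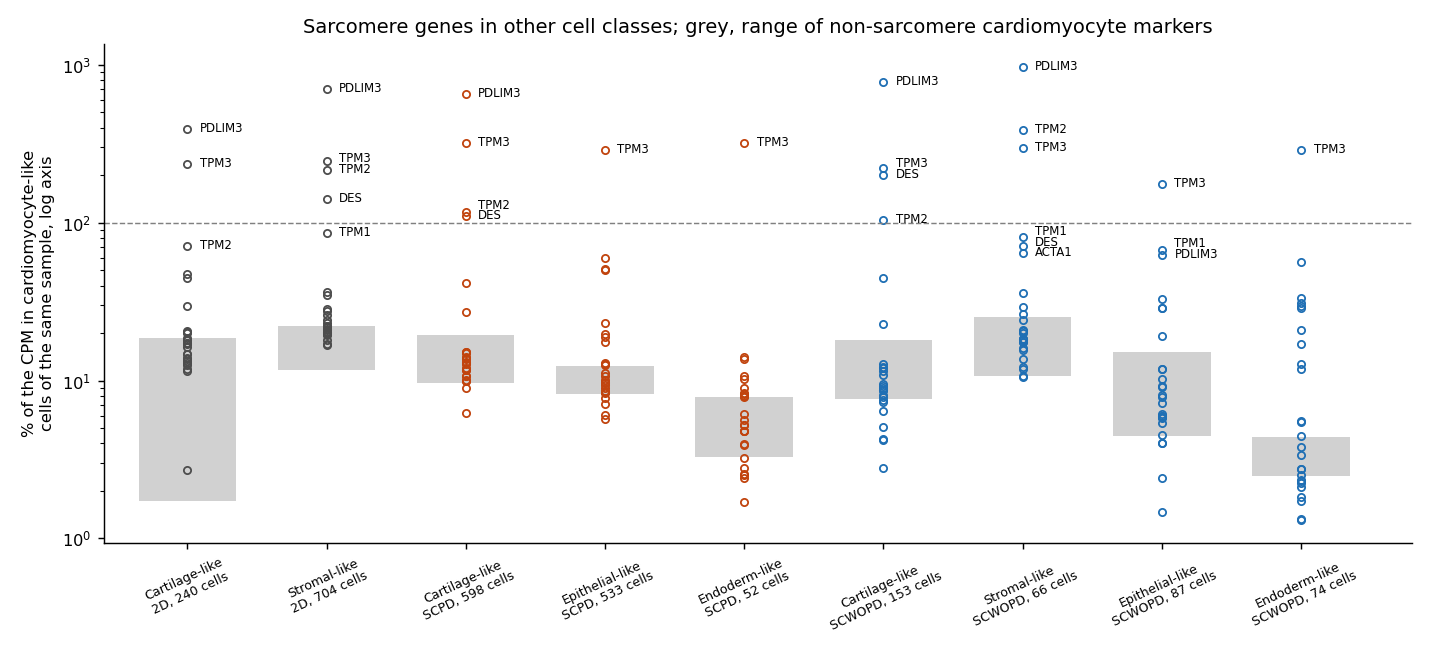
Level of each member at 10 CPM in other cell classes, as a percent of its level in the cardiomyocyte-like cells of the same sample, on a log axis; grey, the range of non-member cardiomyocyte markers (11 in 2D, 8 in SCPD and 9 in SCWOPD); dashed line, equal level. Most members lie in or near the grey range, while PDLIM3, TPM2 and TPM3 lie above the line in stromal-like cells of 2D (PDLIM3 at 700.4%).

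Genes of the same structures that are no members were read from 3 lists. Over all genes, 5.07% passed as higher and 4.66% as lower in SCPD against SCWOPD. Those shares were 3.47% and 1.29% in SCWOPD against 2D, and 9.2% and 6.99% in SCPD against 2D. Of 29 other scaffold and capping genes, 22 were at 10 CPM, and 2 were higher and 2 lower in SCPD against SCWOPD: ACTA2, smooth muscle actin (1.18), and ACTN1, non-muscle alpha-actinin (1.03), against MYOZ1, calsarcin-2 (-1.97), and FHL2, a LIM protein that binds titin (-1.06). None passed in SCWOPD against 2D, and in SCPD against 2D 3 were higher and 2 lower, with MYOZ1 at -1.33 and FHL2 at -1.36. Of 14 chaperone and turnover genes, 3 were higher and 1 lower in SCPD against SCWOPD. TRIM55 and TRIM54, muscle RING-finger proteins of the sarcomere, were higher in SCPD than in SCWOPD by 1.14 and 1.2, and than in 2D by 1.75 and 1.67. FBXO32, atrogin-1, a ubiquitin ligase subunit of muscle, was higher by 0.75 and 1.19. CAPN3, a titin-bound protease, was the one gene of this list that passed in SCWOPD against 2D, at 1.08. Among 9 SRF and MEF2 factors, MYOCD, the cardiac and smooth muscle coactivator of SRF, passed as higher in SCPD against SCWOPD (0.69) and against 2D (0.81). SRF itself was 36.9 CPM in SCPD and 18.1 in 2D, passing at 1.03, and 0.73 against SCWOPD did not pass.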

How the data were processed

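UMI counts per gene and cell, as deposited by the authors, came from 11 libraries of H9 cells. The submitters' processing notes name Cell Ranger 7.0.0 and the build hg38; per the labels' protocols the libraries were 10x 3′ libraries of v2 or v3 chemistry, and which one is not stated. The annotation release and the use of intronic reads or strand are not given in the sources used here, and 13 of the 34 members, among them CSRP3, DES, CMYA5, FHOD3, MYOM1 and TTN, overlap a gene on the opposite strand and 3 one on the same strand (GENCODE 29), so their counts could include reads of those genes.

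Barcodes present in every run of a group with at least 1000 UMIs, at least 500 genes and at most 30% mitochondrial UMIs were kept. No doublet caller was run. Each cell's counts, as the sum of its runs, were set to a total of 10000, and 2000 variable genes, without the 34 members and the mitochondrial and ribosomal genes, gave 30 components and 15 neighbours for Leiden clustering at resolution 0.6 (scanpy 1.11.5, leidenalg 0.10.2, numpy 2.4.6). Clusters with a mean log2(CPM + 1) of at least 8 over 12 non-member cardiomyocyte markers were taken as cardiomyocyte-like, a threshold chosen after seeing the data, unless genes of another class outnumbered cardiomyocyte markers among their 10 leading genes. Names of the other classes are rebuilt from marker lists. CPM were computed in each run and averaged, and their ratios have exact 95% intervals (scipy 1.17.1), which, like all intervals here, cover counting error only. The call rule of 10 CPM and 1.5-fold recovered 48 to 50 of 50 simulated 2-fold changes and 1 to 3 of 50 simulated 1.5-fold changes in each comparison, so it passes few changes near 1.5-fold, and called none of 10037 to 10105 unchanged genes. With 1 sample a group, the simulation gives no rate of false calls from differences between cultures.

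The members and gene lists were chosen with earlier results of these data known. Every member is accounted for; values in each run are given for the actin, troponin T and tropomyosin families and for members past the rule, and for each list of other genes up to 4 with the largest ratios. The closing section gives the alternatives tried: another scaling, fold, floor, mitochondrial limit and clustering, runs or clusters left out, all cells, and 2 chosen after seeing the data. All columns could be assigned to a sample.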

Additional observations from a re-analysis of the deposited data

Results flagged for a closer look

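Of 27 sets of the 5 SCWOPD runs tested for a run far from the other 4, 13 showed one, where chance gives about 1 in 20, and in each it was run 3. The sets come from the same 5 runs and are not independent, so the 13 are not separate events. Run 3 had a total of 12266166 UMIs against 23074862 to 24495291 in the others. In the cardiomyocyte-like cells it was the high run for TTN (3827.3 CPM against 3371.2 to 3388.1), TNNT2 (3753.4 against 3077.5 to 3140.0), TNNC1 (866 against 639 to 663), TPM1 (5019.9 against 4288.6 to 4355.5) and TPM2 (377 against 304 to 314). It was also high for MYBPC3 (117 against 94.2 to 98.7), MYOM1 (726 against 693 to 702), TCAP (113 against 92.2 to 95.7) and SYNPO2L (19.5 against 13.5 to 14). It was the low run for ACTC1 (2528.7 CPM against 2632.0 to 2640.8), ACTA1 (110 against 124 to 125) and PDLIM5 (1197.8 against 1286.5 to 1309.1). The runs hold the same cells, so these gaps lie between runs, not between cells. Leaving run 3 out ended none of the 20 calls among the members, and it added SMPX as lower in SCPD against SCWOPD (-0.66).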

How the results depend on the processing

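No paired analysis was possible because each group is 1 sample and its runs hold the same cells, so the same run number in 2 groups pairs nothing. No called ratio changed sign under any setting run. Leaving out each run kept all 20 calls: over those settings, 2 members were higher and 2 to 3 lower in SCPD against SCWOPD (median log2 ratio 0.04 to 0.10), 1 and 3 in SCWOPD against 2D (0.12 to 0.14), and 7 and 5 in SCPD against 2D (0.10 to 0.11).

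The counts moved with the rule. At 2-fold, 0 were higher and 0 lower in SCPD against SCWOPD, 0 and 0 in SCWOPD against 2D, and 3 and 2 in SCPD against 2D; of all genes, 2.27% and 2%, 1.38% and 0.259%, and 5.02% and 2.56% passed. With no floor on CPM, 4 were higher and 5 lower in SCPD against SCWOPD (2.25% and 2.27% of all genes). The counts were then 3 and 3 in SCWOPD against 2D (1.98% and 0.5%), and 10 and 8 in SCPD against 2D (4.64% and 3.3%). With median-of-ratios scaling, 3 members were higher in SCPD against SCWOPD (5.87% of all genes). The medians were 0.11 in SCPD against SCWOPD and 0.025 in SCWOPD against 2D.

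They moved also with the cells counted. With at most 15% mitochondrial UMIs, the members kept among the variable genes, or resolution 0.3, 0 members were lower in SCWOPD against 2D and 4 higher in SCPD against 2D, the medians of the latter being 0.35, 0.29 and 0.31. Of all genes, 0.758%, 0.748% and 0.73% were then lower in SCWOPD against 2D and 8.68%, 8.67% and 8.61% higher in SCPD against 2D. With the set-aside clusters counted, 0 were lower in SCWOPD against 2D (0.71% of all genes) and 3 lower in SCPD against 2D (6.42%, median 0.31). Without cells in clusters mostly of another sample, 5 were higher in SCPD against SCWOPD (5.61% of all genes) and 5 lower in SCWOPD against 2D (2.35%). Over all cells, 6 were lower in SCPD against SCWOPD (4.62% of all genes, median -0.26) and 2 higher and 1 lower in SCWOPD against 2D (3.38% and 1.28%). In SCPD against 2D 2 were then higher and 7 lower (9.7% and 6.29%). Without the cluster led by MYL2 and MYH7, 3 were higher and 1 lower in SCPD against SCWOPD (5.11% and 4.78% of all genes, median 0.11). In SCWOPD against 2D 2 were then higher and 2 lower (3.87% and 1.36%, median 0.33). In SCPD against 2D 10 were higher and 4 lower (9.82% and 7.6%, median 0.57). Of the 20 calls, 13 held with the set-aside clusters counted, 18 without cells in clusters mostly of another sample, 17 without the cluster led by MYL2 and MYH7, 10 over all cells and 5 at 2-fold. The cause of these shifts was not tested.

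With 1 sample a group, culture-to-culture variation is unknown. The floor of 10 CPM, not the depth alone, leaves 8 members without a call in all cardiomyocyte-like cells.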
